A study of Mus musculus with 54 samples.

Results

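The expression of 10 genes of white and brown adipocytes was followed in the hearts and livers of mice with altered mitochondrial protein synthesis on a high-fat diet (HFD). The genes were taken by name, Ucp1, Cidea, Adipoq, Retn, Cfd, Plin1, Lep, Elovl3, Fabp4 and Pparg, and all 10 were among the 54356 genes listed for each tissue. The mice were C57BL/6, 20 weeks old, and every one of them ate the HFD, in which fat gave 42% of the energy. They were wild type (Mrps12+/+), homozygous for an error-prone mitochondrial ribosome (Mrps12ep/ep) or homozygous for a hyper-accurate one (Mrps12ha/ha). Total RNA of 3 hearts and 3 livers of each genotype was sequenced, and the methods describe its source as total organs. Atrial transcripts differed widely between the hearts, as given below. Both mutations are carried by all cells of the animal. Mice on a normal diet were not analysed here. The comparisons asked whether the genotype changes the transcripts that fat cells make when these are found in heart and liver.

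White adipocytes store triglyceride in a single large droplet coated by perilipin 1 (Plin1) and secrete the hormones leptin (Lep), adiponectin (Adipoq) and, in mice, resistin (Retn) and the complement protease adipsin (Cfd). Brown adipocytes burn fat for heat through the uncoupling protein UCP1 of the mitochondrial inner membrane and also express the droplet protein CIDEA and the fatty acid elongase ELOVL3. PPARG is the nuclear receptor that drives adipocyte differentiation, and FABP4 is a fatty acid carrier of adipocytes that capillary endothelium and macrophages make as well. Fat lies along the outside of the heart and the great vessels. A hepatocyte loaded with lipid can switch on part of the adipocyte droplet programme itself, including Pparg and the CIDE genes, while ELOVL3 is a regular product of the liver.

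The sequences before the starts of Ucp1, Adipoq, Plin1 and Lep are shown because these genes varied together between hearts. The sequences are from RefSeq on GRCm38.p6, the build of the deposited tables, each 250 bases long and ending at the base before the annotated start. Ucp1 is read from chr8:83290098-83290347 on the plus strand, Adipoq from chr16:23146286-23146535 on the plus strand, Plin1 from chr7:79732777-79733026 on the minus strand and Lep from chr6:29059971-29060220 on the plus strand. Capitals mark any match, on either strand, to AGGTCA (a half-site of nuclear receptors, of which PPARG binds a pair), to TTGCGCAA (a site of the C/EBP factors, equal to its own reverse complement) or to TATAAA, the core element that positions the polymerase.
Ucp1: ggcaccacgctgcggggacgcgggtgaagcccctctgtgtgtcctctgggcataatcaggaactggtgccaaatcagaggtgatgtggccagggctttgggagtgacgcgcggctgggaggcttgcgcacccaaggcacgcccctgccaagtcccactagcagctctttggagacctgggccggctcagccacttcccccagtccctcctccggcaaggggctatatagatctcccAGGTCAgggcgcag
Adipoq: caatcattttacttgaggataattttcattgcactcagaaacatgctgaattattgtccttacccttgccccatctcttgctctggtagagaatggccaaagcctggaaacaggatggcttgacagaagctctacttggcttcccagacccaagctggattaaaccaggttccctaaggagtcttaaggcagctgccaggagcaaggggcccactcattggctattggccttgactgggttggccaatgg
Plin1: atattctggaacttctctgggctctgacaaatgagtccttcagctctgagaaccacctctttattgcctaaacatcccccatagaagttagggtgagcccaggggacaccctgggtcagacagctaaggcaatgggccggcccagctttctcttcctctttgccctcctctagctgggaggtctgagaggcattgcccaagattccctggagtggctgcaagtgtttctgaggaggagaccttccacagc
Lep: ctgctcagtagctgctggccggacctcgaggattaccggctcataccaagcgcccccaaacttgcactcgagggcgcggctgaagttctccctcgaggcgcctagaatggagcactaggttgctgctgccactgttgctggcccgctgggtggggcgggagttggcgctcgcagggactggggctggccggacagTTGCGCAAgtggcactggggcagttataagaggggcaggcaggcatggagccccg

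Ucp1 held 1 AGGTCA that begins 14 bases before the start, and Lep held 1 TTGCGCAA that begins 55 bases before it. The windows of Adipoq and Plin1 held none of these letters. In the 32851 promoter windows of the same length, 14.0% had AGGTCA or its reverse complement, 0.164% had TTGCGCAA and 12.4% had TATAAA or its reverse complement. Of the other members with a promoter entry, Cfd and Retn had no match, and of the 3 starts listed for Pparg 2 had a nuclear receptor half-site and 1 had the core element on the other strand. Entries for Cidea, Elovl3 and Fabp4 were not used here. A match describes the letters only.

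Values are normalized counts, the read counts of a gene divided by a size factor of the sample, unless another unit is named. Hearts held 11202864 to 51480512 reads on genes and livers 21238166 to 81518015, and 1 read was worth 0.580 to 3.020 normalized counts in the heart and 0.683 to 2.380 in the liver. The markers of the labelled tissues were abundant in every sample. The 8 cardiomyocyte genes summed to between 2170716 and 3758970 in the hearts, and the 8 hepatocyte genes to between 5033634 and 6873185 in the livers. Some libraries stood apart before any comparison was made. The atrial list, 8 genes such as Sln and Myl7, summed to 153506 to 528914 in the hearts of Mrps12+/+ mice 2 and 3 and Mrps12ep/ep mice 2 and 3, and to 14590 to 31906 in the other 5 hearts. The 10 genes of fast skeletal muscle summed to 25079 and 31897 in the livers of Mrps12+/+ mice 1 and 2 and to 38 to 219 in the other 7. Mouse numbers name samples within a group and tissue, and the labels do not say that a heart and a liver with the same number came from 1 mouse.

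In the heart, 5 of the 10 genes rested on 2 animals. Ucp1, Adipoq, Plin1, Lep and Cfd were highest in the hearts of Mrps12+/+ mouse 3 and Mrps12ep/ep mouse 2, next in Mrps12+/+ mouse 2, and at or close to 0 in most of the others. Retn followed the same order of these 3 hearts at very low counts. Cidea, Fabp4 and Pparg were well expressed in all 9 hearts, and Elovl3 was low and varied in its own way.

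Ucp1 (ENSMUSG00000031710.4, GRCm38 chromosome 8, 83290352 to 83298452, plus strand), the defining gene of brown fat, was at 0, 25.1 and 8557 in the hearts of Mrps12+/+ mice 1, 2 and 3. The Mrps12ep/ep hearts had 1.0, 722.6 and 3.6, and the Mrps12ha/ha hearts 5.5, 0 and 0. The 8557 of Mrps12+/+ mouse 3 came from 13607 reads and the 722.6 of Mrps12ep/ep mouse 2 from 1246, whereas the 3 Mrps12ha/ha hearts together had 3 reads. The 3 genotypes overlapped, since Mrps12+/+ mouse 1 had no read. The mean of the Mrps12+/+ hearts was 1560 times that of the Mrps12ha/ha hearts, with an exact Poisson 95% interval of 534 to 7570 that covers only the counting error of these 3 reads, and 6.86 times without Mrps12+/+ mouse 3. Between mice the log2 fold change was -5.02 with a standard error of 3.11 (adjusted p = 0.359 from limma).

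Adipoq (ENSMUSG00000022878.5, chromosome 16, 23146536 to 23158028, plus strand), which encodes the hormone adiponectin, had 16.4, 94.3 and 1276 in Mrps12+/+ hearts, 0, 214.0 and 13.6 in Mrps12ep/ep hearts and 7.4, 12.1 and 6.9 in Mrps12ha/ha hearts. Every Mrps12ha/ha heart lay below every Mrps12+/+ heart, though by little next to mouse 1. In a two-sided exact permutation test p was 0.10, the smallest that 3 against 3 mice allow. Its log2 fold change was -3.75 with a standard error of 1.90 (adjusted p = 0.289 from limma).

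Plin1 (ENSMUSG00000030546.14, chromosome 7, 79720218 to 79732903, minus strand), the droplet coat of adipocytes, had 10.3, 135.8 and 2893 in Mrps12+/+ hearts, 0, 331.7 and 9.1 in Mrps12ep/ep hearts and 20.2, 18.1 and 5.5 in Mrps12ha/ha hearts. The 4 lowest hearts were of all 3 genotypes. Lep (ENSMUSG00000059201.12, chromosome 6, 29060220 to 29073877, plus strand), the satiety hormone, had 2.6, 28.6 and 240.2 in Mrps12+/+, 0, 49.3 and 0 in Mrps12ep/ep and 0, 3.0 and 0 in Mrps12ha/ha hearts. A single read made up the Mrps12ha/ha total of Lep. The Mrps12+/+ mean was 90.5 times the Mrps12ha/ha mean, with an exact Poisson 95% interval of 16.2 to 3570 for counting error alone, and 15.6 times without Mrps12+/+ mouse 3.

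Cfd (ENSMUSG00000061780.6, chromosome 10, 79890853 to 79892655, plus strand), the adipsin gene, had 10.3, 79.6 and 471.7 in Mrps12+/+ hearts, 3.0, 404.2 and 23.6 in Mrps12ep/ep hearts and 1.8, 3.0 and 6.2 in Mrps12ha/ha hearts. It was the other gene whose Mrps12ha/ha hearts all lay below the Mrps12+/+ hearts (two-sided exact permutation test, p = 0.10), with a log2 fold change of -4.13 and a standard error of 1.67 (adjusted p = 0.23 from limma). The groups were apart in this comparison for 21.2% of all tested genes. The Mrps12ha/ha values of Cfd came from 1, 1 and 9 reads, and mice 1 and 2 had the fewest reads of the 9 hearts. Unlike the other 4 genes, Cfd was nearly as high in Mrps12ep/ep mouse 2 as in Mrps12+/+ mouse 3. Retn (ENSMUSG00000012705.16, chromosome 8, 3655770 to 3660110, plus strand), the resistin gene, had 0.9, 9.5 and 17.6 in Mrps12+/+, 0, 13.3 and 2.7 in Mrps12ep/ep and 0, 0 and 2.8 in Mrps12ha/ha hearts. Its mean of 5.20 was under the minimum of 10 for testing.

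**Figure D1:**
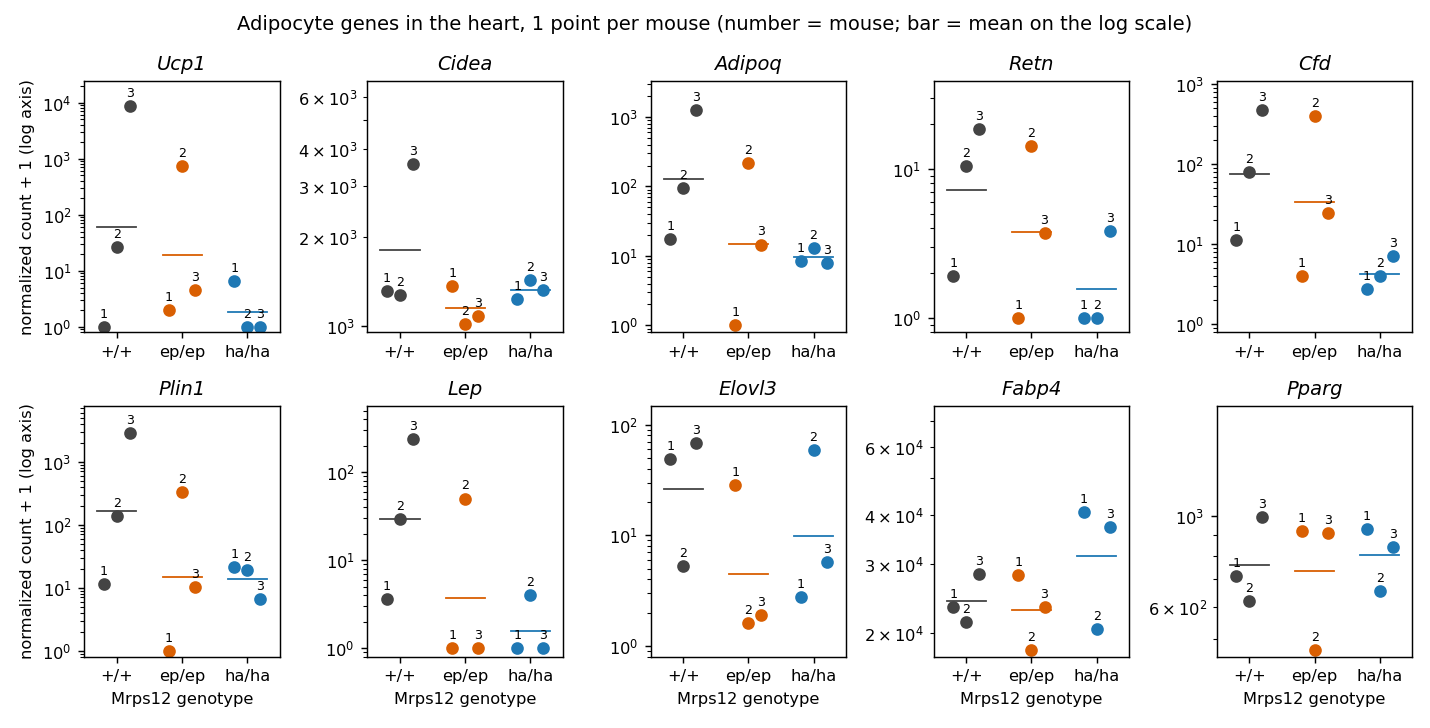
Normalized counts plus 1 on log axes of the 10 genes in the heart, with 1 point per mouse, the mouse number above it and a bar at the mean on the log scale for each Mrps12 genotype (3 mice each). Ucp1, Adipoq, Retn, Cfd, Plin1 and Lep reach their highest values in +/+ mouse 3 and ep/ep mouse 2, with Ucp1 at 8557 and 722.6, while Cidea, Fabp4 and Pparg span 3.5-fold or less over the 9 hearts.

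Across the 9 hearts, the log2 values of Ucp1, Adipoq, Plin1, Lep and Cfd correlated with each other at Pearson r of 0.86 to 0.98, the highest being that of Adipoq with Plin1. The same few hearts carry all of these values, so that the coefficients describe those hearts and are given without a test. Within Mrps12+/+ mouse 3 the counts were not in the same proportion as in the other hearts. Ucp1 was 6.71 times Adipoq there and 3.38 times in Mrps12ep/ep mouse 2, against 0.266 times in Mrps12+/+ mouse 2. Lep was 0.188, 0.230 and 0.303 times Adipoq in these 3 hearts. Per kilobase of exon, the normalized count of Ucp1 in Mrps12+/+ mouse 3 was 5230, below that of Fabp4 (6310) and above that of Cidea (3180), Adipoq (924), Plin1 (622), Cfd (512) and Lep (71.6) in the same heart.

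Genes outside the 10 were read in the same hearts, from lists of other adipocyte genes and of other cell types. Otop1, a proton channel gene of brown fat, had 308.2 in Mrps12+/+ mouse 3, 23.8 in Mrps12ep/ep mouse 2, 6.9 in Mrps12+/+ mouse 2 and 0 in the other 6 hearts. Adrb3, the receptor through which noradrenaline stimulates brown fat, had 342.1 and 34.8 in the first 2 of these and 0 to 2.6 in the other 7. Dio2, which makes active thyroid hormone, had 334.6 and 233.1 in them and 25.8 to 83.5 in the others. The brown list counts 18 genes, of which 15 had a mean of at least 10. The list holds genes of oxidative metabolism that heart muscle expresses too. Of the 15 genes, 6 were highest in Mrps12+/+ mouse 3 and 1 in Mrps12ep/ep mouse 2, where 7.71% and 16.8% of all tested genes were. Mrps12+/+ mouse 1 was highest for 3, and the rest were highest in Mrps12ha/ha hearts. The median difference of the 15 genes from the other hearts was 0.22 in Mrps12+/+ mouse 3 and -0.16 in Mrps12ep/ep mouse 2 on the log2 scale. Ucp3, a relative of Ucp1 in muscle, had 1917 in Mrps12+/+ mouse 3 and its highest values, 2924 to 5499, in the Mrps12ha/ha hearts.

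The genes of the other white and general adipocyte list were mostly highest in 1 heart. Of 24 genes with a mean of at least 10, 19 were highest in Mrps12+/+ mouse 3, where 7.71% of all tested genes were, and the median difference from the other hearts was 0.85 on the log2 scale. In Mrps12ep/ep mouse 2, 1 of the 24 was highest, beside 16.8% of all tested genes, and the median difference was 0.01. Cidec, whose product fuses lipid droplets, had 1642 in Mrps12+/+ mouse 3, 233.1 in Mrps12ep/ep mouse 2, 95.2 in Mrps12+/+ mouse 2 and 4.0 to 27.2 in the other 6 hearts. Lgals12, a galectin of lipid droplets, had 161.0, 29.0 and 13.8 in these 3 hearts and 0 to 1.8 elsewhere. Acvr1c, an activin receptor of fat cells, had 84.3 and 18.6 in the first 2 and 0 to 2.6 elsewhere. Pck1, an enzyme of glycerol synthesis in fat, had 5248 in Mrps12+/+ mouse 3 against 29.1 to 594.2 in the other 8 hearts. Scd1, a desaturase of fatty acid synthesis, had 22323 there against 858.2 to 2985. It is not on the white list but on one of lipid droplet genes of fatty liver. Of 16 genes of that list with a mean of at least 10, 6 were highest in Mrps12+/+ mouse 3, the members Cidea and Pparg among them.

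The genes that varied most like a member were for most members high in the same hearts. For Ucp1 over all tested genes and 9 hearts they were Lgals12 (r = 0.973), Otop1 (0.970), Adcy3 (0.962), Arxes2 (0.949) and Palm3 (0.946). For Adipoq they were Plin1 (0.983), Mpzl2 (0.972), Cidec (0.953), Slc8a3 (0.943) and Tmem45b (0.937). Cfd had other neighbours, Cers6 (0.986), Trim67 (0.977), Tent5a (0.972), Pi15 (0.970) and Sfrp1 (0.967), all highest in Mrps12ep/ep mouse 2, while Cfd itself was highest in Mrps12+/+ mouse 3. Of the 5 neighbours of Lep, Cidec and Mpzl2 were also neighbours of Adipoq and Plin1.

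The hearts with fat transcripts were also hearts with atrial transcripts. All 3 were among the 4 hearts with a high atrial sum, and the fourth, Mrps12ep/ep mouse 3, had 153506 atrial counts with 3.6 of Ucp1 and 13.6 of Adipoq. Sln, a regulator of the calcium pump in atria, had 8337 and 7126 in Mrps12+/+ mice 2 and 3, 16198 and 4761 in Mrps12ep/ep mice 2 and 3 and 3.0 to 343.7 in the other 5 hearts. Bmp10, made by the right atrium, had 45047 in Mrps12ep/ep mouse 2, 1052 in Mrps12+/+ mouse 3 and 0 to 14.7 in the other 7 hearts, and these 2 were the hearts with the most Ucp1. Upk3b, a gene of mesothelium, had 157.6, 716.4 and 406.3 in Mrps12+/+, 82.2, 1179 and 508.6 in Mrps12ep/ep and 23.9, 60.4 and 0.7 in Mrps12ha/ha hearts. Mesothelium, which covers the heart, had summed counts over 8 genes of 954 to 2014 in Mrps12+/+, 705 to 3434 in Mrps12ep/ep and 322 to 558 in Mrps12ha/ha hearts. The atrial sum ran from 14590 to 25674 in Mrps12ha/ha, from 31906 to 251856 in Mrps12+/+ and from 20677 to 528914 in Mrps12ep/ep hearts. Of the other marker lists, 4 lymphocyte genes were tested. All 4 had higher means in Mrps12ha/ha than in Mrps12+/+ hearts (median 1.11), as did 7662 of all 16057 tested genes. Macrophage genes summed to 8879 to 16885 over the 9 hearts, and fast skeletal muscle genes to 54596 to 106631. Ckm, a creatine kinase gene of muscle, made most of the last sum, with 43966 to 78895. The fast myosin genes Myh4, Myh1 and Myh2 had only 0 to 5.5 in the hearts. The part that these differences in marker lists had in the adipocyte genes was not tested. In whole tissue, fewer cells of a type and less RNA per cell cannot be told apart.

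**Figure D2:**
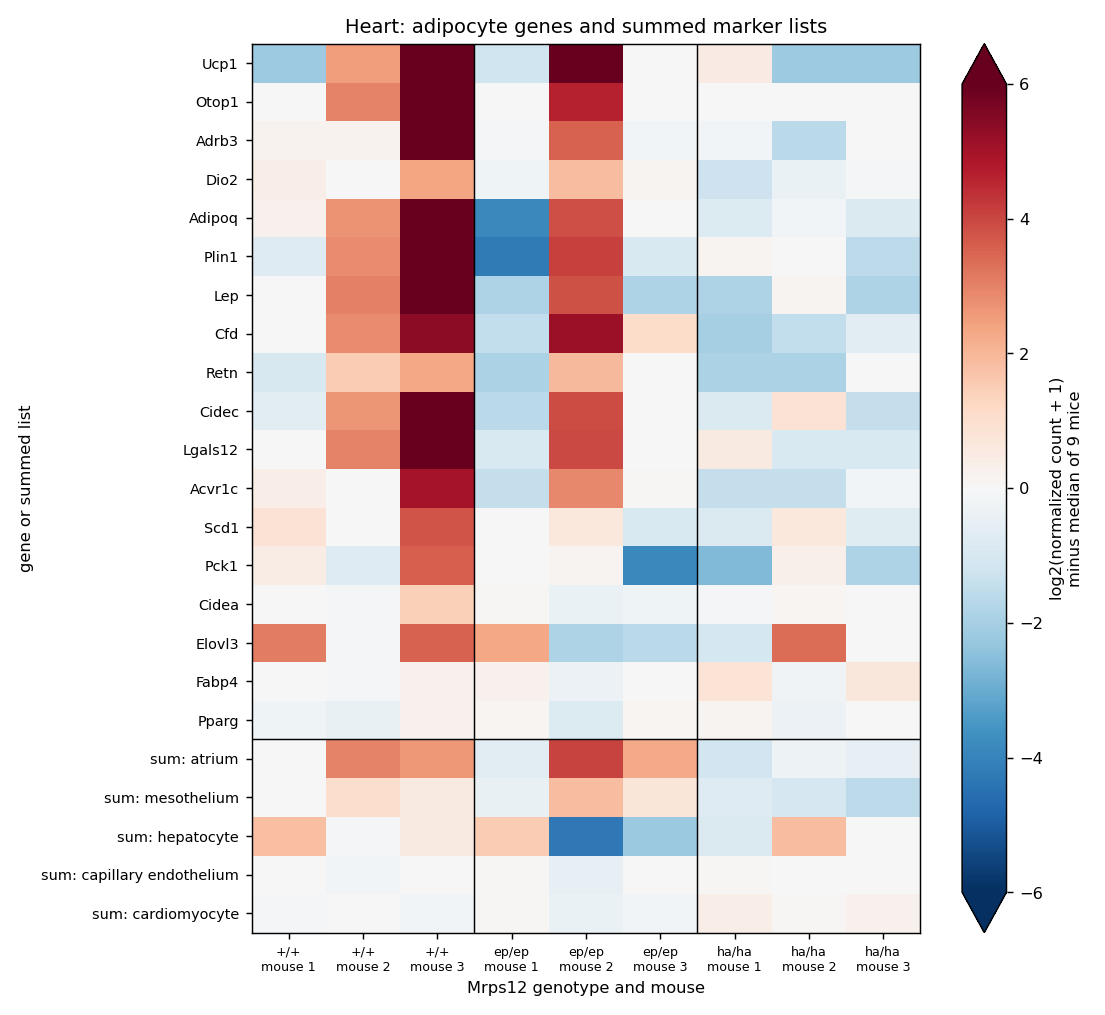
Heat map of adipocyte genes (upper block, log2 of the normalized count plus 1) and of the summed counts of marker lists (lower block) in the 9 hearts, each row centred on its median, with red above it and blue below. The adipocyte genes from Ucp1 to Acvr1c are red in +/+ mouse 3 and ep/ep mouse 2, the hearts with Bmp10 above 1000, and most are red in +/+ mouse 2, while Elovl3 follows the hepatocyte sum in most hearts.

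Cidea (ENSMUSG00000024526.9, chromosome 18, 67343604 to 67367785, plus strand), the droplet protein of brown fat, was expressed in every heart, with 1317, 1272 and 3547 in Mrps12+/+, 1371, 1014 and 1083 in Mrps12ep/ep and 1233, 1435 and 1329 in Mrps12ha/ha hearts. Apart from Mrps12+/+ mouse 3 the hearts lay between 1014 and 1435, whether or not they had Ucp1. The count of Cidea was 52.8 to 346 times that of its relative Cidec in the 6 hearts with little fat transcript, and 13.4, 4.35 and 2.16 times in Mrps12+/+ mouse 2, Mrps12ep/ep mouse 2 and Mrps12+/+ mouse 3. The log2 fold change against Mrps12+/+ was -0.45 in Mrps12ha/ha hearts (standard error 0.34) and -0.66 in Mrps12ep/ep hearts (standard error 0.34), with adjusted p of 0.45 and 1 from limma. Without Mrps12+/+ mouse 3 the first of these was 0.04.

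Elovl3 (ENSMUSG00000038754.5, chromosome 19, 46131897 to 46135694, plus strand), the elongase of brown fat and liver, had 48.2, 4.3 and 67.3 in Mrps12+/+ hearts, 27.7, 0.6 and 0.9 in Mrps12ep/ep hearts and 1.8, 57.4 and 4.8 in Mrps12ha/ha hearts. Its order was not that of Ucp1 (r = -0.05). The tested genes most like it were Ttpa (r = 0.973), Slc27a2 (0.967), Orm1 (0.950), CT030155.1 (0.944) and Pigr (0.944), of which Ttpa and Orm1 encode secreted or transfer proteins made by hepatocytes. The summed counts of 8 hepatocyte genes in the heart ran from 4337 to 16189 in Mrps12+/+, from 234 to 13127 in Mrps12ep/ep and from 2535 to 16508 in Mrps12ha/ha hearts, and the 4 hearts with the most Elovl3 held the 4 highest sums. Set against Alb, the albumin gene, there were 1.57 to 16.4 reads of Elovl3 per 1000 of Alb in the 6 hearts with at least 3 reads of both (median 4.23), and 0.701 to 3.80 in the 9 livers (median 3.11). The 16.4 belonged to Mrps12+/+ mouse 3, the heart with the most Ucp1, and the next highest was 5.81.

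Fabp4 (ENSMUSG00000062515.3, chromosome 3, 10204088 to 10208576, minus strand), the fatty acid carrier, had 23317, 21342 and 28317 in Mrps12+/+ hearts, 28138, 18052 and 23299 in Mrps12ep/ep hearts and 40780, 20422 and 37400 in Mrps12ha/ha hearts. Mrps12ha/ha mice 1 and 3 were the highest of the 9 and mouse 2 was the second lowest. The gene did not follow Adipoq (r = -0.35). The genes most like it were Mast2 (r = 0.963), Secisbp2 (0.959), Rasa4 (0.959), Kat8 (0.958) and Fars2 (0.958), none of them on the endothelial list. Of the 10 genes of capillary endothelium 7 were highest in Mrps12ha/ha mouse 1 and 2 in mouse 3. Of all 16057 tested genes 19.4% and 16.7% were highest in these hearts. Gpihbp1, which anchors lipoprotein lipase on capillaries, had 6903 and 6709 in Mrps12ha/ha mice 1 and 3 and 2825 to 4962 in the other 7 hearts, and Kdr, the receptor for VEGF, had 12120 and 9775 there and 4956 to 9311 in the others. Egfl7, secreted by endothelium, had 9820 and 7919 against 2912 to 5240, and Aqp1, a water channel, 18597 and 22613 against 10090 to 16451. Cd36, on the same list, went the other way, with 49452 and 47219 in these 2 hearts, 43506 in Mrps12ep/ep mouse 2 and 67753 to 76611 in the other 6. For Fabp4 the log2 fold change in Mrps12ha/ha against Mrps12+/+ hearts was 0.38 with a standard error of 0.28 (adjusted p = 0.426 from limma). It was 0.69 without Mrps12ha/ha mouse 2, the heart with the fewest reads, and 0.61 with a weight for each heart, with adjusted p of 0.037 and 0.0249 from limma, in settings where 4330 and 5573 of 16057 genes passed.

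Pparg (ENSMUSG00000000440.12, chromosome 6, 115360951 to 115490399, plus strand), the receptor of adipocyte differentiation, had 711.3, 616.9 and 995.5 in Mrps12+/+ hearts, 916.3, 468.6 and 910.0 in Mrps12ep/ep hearts and 929.6, 655.4 and 839.6 in Mrps12ha/ha hearts. The groups overlapped throughout. Mrps12ep/ep mouse 2, among the richest in fat transcripts, had the lowest Pparg of the 9. Over the hearts Pparg correlated with Fabp4 at r = 0.74 and with Adipoq at r = -0.28.

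In the limma fit over all genes no member had an adjusted p under 0.05 between genotypes in the heart, which does not show equal levels. Of the 10 members 9 were tested. Ucp1, Adipoq, Plin1, Lep and Cfd reached the minimum mean of 10 through the few hearts where they were high. Neither their number nor a median that includes them lends weight to a difference. Between Mrps12ha/ha and Mrps12+/+ hearts 0 of 9 members had an adjusted p under 0.05 with limma, as did 0.0311% of all 16057 tested genes. An unadjusted p under 0.05 was found for Cfd and Lep, 2 of 9, and for 19.7% of all genes. The groups did not overlap for Adipoq and Cfd, again 2 of 9, and for 21.2% of all genes. The median log2 fold change was -3.58 over the 9 members, which is the value of Plin1, and -0.024 over all genes. Without Mrps12ha/ha mouse 2, 1 of 9 members passed, Fabp4, as did 27% of all genes.

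Between Mrps12ep/ep and Mrps12+/+ hearts 0 of 9 members passed the adjusted threshold with limma, where the share of all genes was 0%. None had an unadjusted p under 0.05 (1.69% of all genes) and none had groups apart (8.03%). All 9 log2 fold changes were below 0, as were 8392 of all 16057 tested genes, with a median of -1.69 against -0.009 over all genes. For Ucp1 it was -1.69 with a standard error of 3.11, and 1.88 without Mrps12+/+ mouse 3, which turned its direction. Cfd turned from -1.14 to 0.18 in the same way, and to 0.40 without Mrps12ep/ep mouse 1. Between Mrps12ha/ha and Mrps12ep/ep hearts 0 of 9 passed (0.0249% of all genes), none had an unadjusted p under 0.05 (17.9%) and none had groups apart (16.6%). The median was -0.12, against -0.023 over all genes. Adipoq, Plin1 and Lep had log2 fold changes of -0.62, -0.12 and -1.22, which became 1.32, 2.12 and 0.67 without Mrps12ep/ep mouse 2. With limma-voom on whole reads 0 members passed in each of these comparisons too.

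The gene lists were counted in the same way in the heart. Over all 16057 tested genes, 8395 were lower in Mrps12ha/ha and 8392 in Mrps12ep/ep than in Mrps12+/+ hearts. Of 24 tested genes of the other white and general adipocyte list, 20 had a lower and 4 a higher mean log2 value in Mrps12ha/ha than in Mrps12+/+ hearts (median -0.42), and 23 and 1 in Mrps12ep/ep hearts (median -0.35). Of 15 tested genes of the other brown adipocyte list, 12 were lower and 3 higher in Mrps12ha/ha hearts (median -0.28), and 14 and 1 in Mrps12ep/ep hearts (median -0.28). None of these genes passed the adjusted threshold with limma in the 3 heart comparisons, and the unadjusted p was under 0.05 for 3 of 24 genes of the first list and 3 of 15 of the second in Mrps12ha/ha hearts, beside 19.7% of all genes, and for 2 of 24 and 1 of 15 in Mrps12ep/ep hearts, beside 1.69%. Both mutants were set against the same 3 Mrps12+/+ hearts, 1 of which was the heart with the most fat transcript. In that heart, Mrps12+/+ mouse 3, 19 of the 24 genes of the first list were highest.

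In the liver the members formed other groups. Adipoq, Plin1, Lep and Retn were found almost only in Mrps12+/+ mice 1 and 2. Cidea and Pparg were highest in Mrps12+/+ mice 2 and 3. Cfd was higher in all 3 Mrps12+/+ livers than in the 6 mutant livers. Fabp4 and Elovl3 were expressed in all 9, and Ucp1 was nearly absent, with 4 reads in Mrps12+/+ mouse 1, 1 and 2 reads in Mrps12ep/ep mice 1 and 2 and 0 in the other 6 livers.

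Adipoq had 34.3, 118.1 and 2.4 in Mrps12+/+ livers, 3.9, 2.2 and 2.2 in Mrps12ep/ep livers and 0, 0.7 and 0 in Mrps12ha/ha livers. Mrps12+/+ mouse 3 was within the range of the Mrps12ep/ep livers, and the Mrps12ha/ha group had 1 read in all. The Mrps12+/+ mean was 221 times the Mrps12ha/ha mean, with an exact Poisson 95% interval of 39.7 to 8730 for counting error, and 78.8 times without Mrps12+/+ mouse 2. The log2 fold change was -4.35 with a standard error of 1.16 in Mrps12ha/ha and -2.72 with a standard error of 1.16 in Mrps12ep/ep livers (adjusted p = 0.169 and 0.498 from limma).

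Lep had 30.1, 203.8 and 6.5 in Mrps12+/+ livers and 0 reads in all 6 mutant livers. Against a floor of 3 reads over the group it was at least 58.6-fold lower in Mrps12ha/ha and at least 64.5-fold lower in Mrps12ep/ep livers (adjusted p = 0.123 and 0.299 from limma). Most of the Mrps12+/+ mean came from mouse 2, without which these bounds were 13.4-fold and 14.8-fold. Plin1 had 24.5, 110.8 and 1.6 in Mrps12+/+ livers, 0 in the 3 Mrps12ep/ep livers and 2.4, 0 and 0 in Mrps12ha/ha livers, where the 2.4 was 1 read. It was at least 36.7-fold lower in Mrps12ep/ep livers (adjusted p = 0.422 from limma), and at least 10.5-fold without Mrps12+/+ mouse 2. Retn had 9.8, 34.8 and 3.3 in Mrps12+/+, 3.1, 0 and 0 in Mrps12ep/ep and 0 in all Mrps12ha/ha livers, at least 11.7-fold lower in the last (at least 4.78-fold without Mrps12+/+ mouse 2), and was not tested since its mean was 5.67.

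The 2 livers with most of these transcripts were the livers with skeletal muscle transcripts. Myh4, a myosin of fast muscle fibres, had 6181 and 3957 in Mrps12+/+ mice 1 and 2 and 0 to 8.6 in the other 7 livers. Myh2, the myosin of another fast fibre type, had 2756 and 4798 there and 0 to 6.3 in the others, and Ckm, the muscle creatine kinase, had 3847 and 4894 against 0 to 184.0. The 5 tested genes most like Adipoq over the 9 livers were Ankrd23 (r = 0.964), Smtnl1 (0.950), Myoz1 (0.948), Myh2 (0.946) and Myh4 (0.943). All 5 had their highest values in Mrps12+/+ mice 1 and 2, and they include the muscle fibre genes Myoz1, Myh2 and Myh4. Those most like Lep were Enah (0.986), Lynx1 (0.984), Plin1 (0.955), Epdr1 (0.955) and Tmem38a (0.952). The summed counts of the 10 fast muscle genes were 25079, 31897 and 48 in Mrps12+/+, 187, 69 and 38 in Mrps12ep/ep and 64, 52 and 219 in Mrps12ha/ha livers. Of the 8 mesothelial genes 5 were highest in Mrps12+/+ mouse 1, 2 in mouse 2 and Krt8 in mouse 3. Of all tested genes 14.0%, 7.22% and 21.9% were highest in these livers. Without Krt8, which hepatocytes also express and which alone had 8807 to 17614, the other 7 mesothelial genes summed to 536, 511 and 145 in Mrps12+/+, 161, 361 and 147 in Mrps12ep/ep and 336, 119 and 244 in Mrps12ha/ha livers. Upk3b had 170.7 and 158.5 in Mrps12+/+ mice 1 and 2 and 12.2 to 131.5 in the other 7, Upk1b 48.3 and 67.9 against 0 to 27 and Lrrn4 44.8 and 35.6 against 0 to 17.3, while Muc16 had 29.4 and 82.5 against 2.1 to 59.5. The cardiomyocyte genes summed to 8304 in Mrps12ha/ha mouse 3 and to 46 to 505 in the other 8 livers. The part of these transcripts in the adipocyte genes was not tested. In the hearts that had fat transcripts Lep was 0.188 to 0.303 times Adipoq, and in the livers of Mrps12+/+ mice 1 and 2 it was 0.878 and 1.73 times, while Ucp1 had 4 and 0 reads there.

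Cidea behaved otherwise. It had 10.5, 701.9 and 647.3 in Mrps12+/+ livers, 9.4, 47.7 and 13.3 in Mrps12ep/ep livers and 50.0, 0.7 and 45.7 in Mrps12ha/ha livers. Mrps12+/+ mouse 1, which had Adipoq and Lep, was at the level of the mutants, and Mrps12+/+ mouse 3, which had little of either, was among the highest. Its log2 fold change was -3.45 in Mrps12ha/ha and -3.17 in Mrps12ep/ep livers, each with a standard error of 1.74 (adjusted p = 0.409 and 0.57 from limma). The 5 genes most like it were Eif2b2 (r = 0.967), Lgals1 (0.951), Gm17936 (0.937), Them6 (0.934) and Cidec (0.934).

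Cidec, the liver partner of Cidea that is known as a PPARG target in fatty liver, had 506.5, 2474 and 7770 in Mrps12+/+ livers, 210.1, 1112 and 312.9 in Mrps12ep/ep livers and 1426, 171.3 and 728.9 in Mrps12ha/ha livers. Cidea was 0.284 times Cidec in Mrps12+/+ mouse 2 and 0.0207 to 0.0833 times in the other 7 livers with at least 3 reads of both. Mogat1, an acyltransferase of triglyceride synthesis, had 83.3, 264.4 and 370.9 in Mrps12+/+ livers and 53.3 to 161.8 in the 6 mutant livers. Plin4, another droplet coat, had 15162 in Mrps12+/+ mouse 3 and 1874 to 6088 in the other 8, and Cd36, the fatty acid receptor, had 5077, 7855 and 12639 in Mrps12+/+ and 2581 to 7264 in mutant livers. The 2 livers with the most Cidea thus also had the most Cidec and Mogat1.

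Pparg had 510.7, 1062 and 1447 in Mrps12+/+ livers, 437.4, 466.9 and 392.8 in Mrps12ep/ep livers and 552.2, 490.7 and 628.0 in Mrps12ha/ha livers. Every Mrps12ep/ep liver lay below every Mrps12+/+ liver and below every Mrps12ha/ha liver, and the exact permutation test, two-sided, gave p = 0.10 for each. Against Mrps12+/+ its log2 fold change was -1.10 with a standard error of 0.32 in Mrps12ep/ep (adjusted p = 0.41 from limma) and -0.73 with a standard error of 0.32 in Mrps12ha/ha livers (adjusted p = 0.34). Without Mrps12+/+ mouse 1 the first of these was -1.52 and passed (adjusted p = 0.0282 from limma). Over the 9 livers Pparg correlated with Cidea at r = 0.84, with Cfd at r = 0.78 and with Adipoq at r = 0.31.

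Cfd had 190.3, 489.2 and 407.6 in Mrps12+/+ livers, 131.7, 153.2 and 113.2 in Mrps12ep/ep livers and 76.2, 56.0 and 123.7 in Mrps12ha/ha livers. Between Mrps12ha/ha and Mrps12+/+ livers it had the smallest unadjusted p of the members. The log2 fold change was -2.04 with a standard error of 0.39 in Mrps12ha/ha (adjusted p = 0.106 from limma) and -1.35 with a standard error of 0.39 in Mrps12ep/ep livers (adjusted p = 0.409). Both mutant groups lay below the Mrps12+/+ livers (two-sided exact permutation test, p = 0.10 each). Cfd was 5.55 and 4.14 times Adipoq in Mrps12+/+ mice 1 and 2 and 167 times in Mrps12+/+ mouse 3. The tested genes most like it were Slamf1 (r = 0.946), Gja1 (0.943), Ppfibp1 (0.941), Pom121 (0.935) and Ccni (0.927). Over 10 macrophage genes the summed counts were 16759 to 40704 in Mrps12+/+, 23585 to 34297 in Mrps12ep/ep and 19034 to 35284 in Mrps12ha/ha livers.

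**Figure D3:**
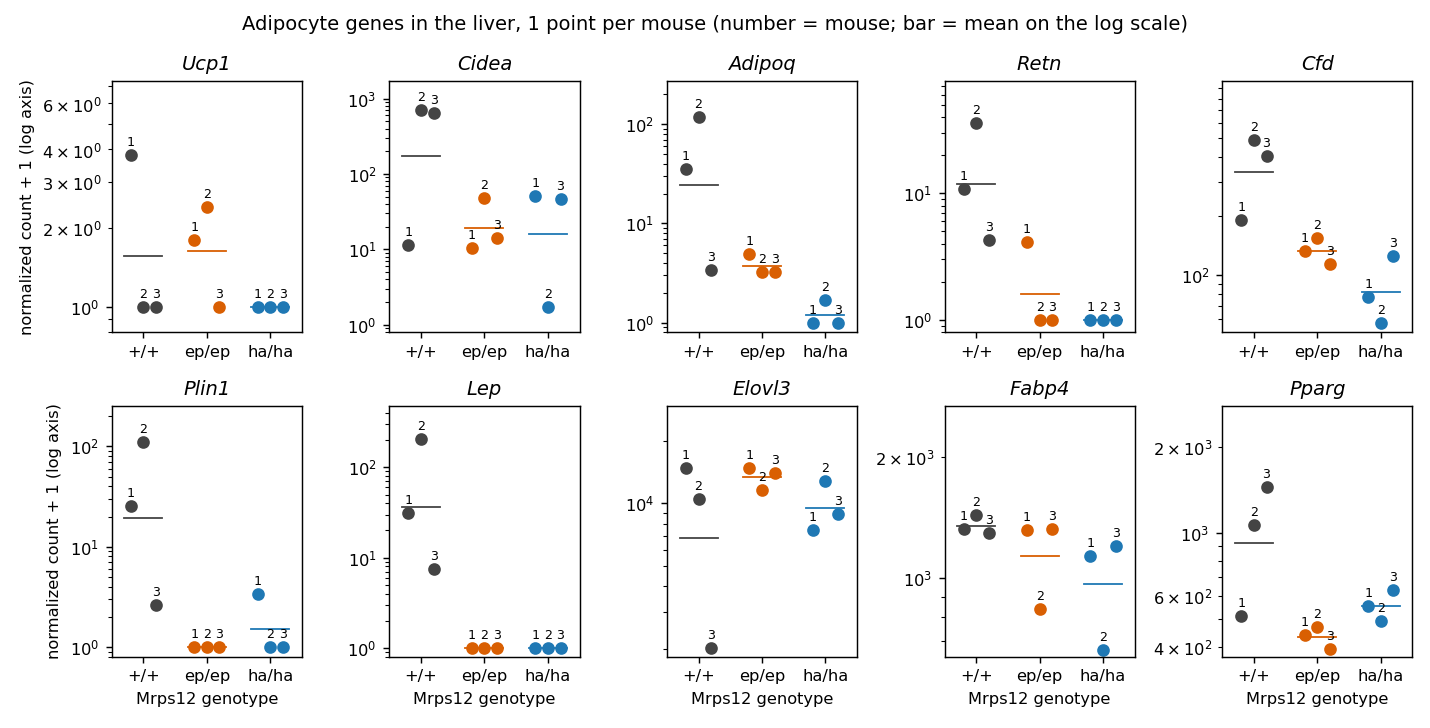
Normalized counts plus 1 on log axes of the 10 genes in the liver, with 1 point per mouse, the mouse number above it and a bar at the mean on the log scale for each Mrps12 genotype (3 mice each). Adipoq, Plin1, Lep and Retn are highest in +/+ mice 1 and 2, Cidea and Pparg in +/+ mice 2 and 3, and Cfd lies between 190.3 and 489.2 in +/+ and between 56.0 and 153.2 in the mutant livers.

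Elovl3 had 14797, 10503 and 2025 in Mrps12+/+ livers, 14789, 11573 and 13938 in Mrps12ep/ep livers and 7466, 12732 and 8915 in Mrps12ha/ha livers. Mrps12+/+ mouse 3 was the lowest and the next lowest was 7466. This liver also had 740661 of Fgb, a fibrinogen gene of the acute phase, against 141891 to 210802 in the other 8. Without it the log2 fold change in Mrps12ha/ha livers turned from 0.48 to -0.40 (adjusted p = 0.758 and 0.554 from limma). Elovl3 and Pparg correlated at r = -0.81 over the livers.

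Fabp4 had 1322, 1431 and 1293 in Mrps12+/+ livers, 1314, 838.4 and 1325 in Mrps12ep/ep livers and 1133, 662.1 and 1201 in Mrps12ha/ha livers. The Mrps12ha/ha livers lay below the Mrps12+/+ livers (two-sided exact permutation test, p = 0.10), with a log2 fold change of -0.48 and a standard error of 0.24 (adjusted p = 0.41 from limma). In Mrps12ep/ep livers mouse 2 alone was low. The 2 livers low in Fabp4 were not those low in Elovl3 or high in Cidea.

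**Figure D4:**
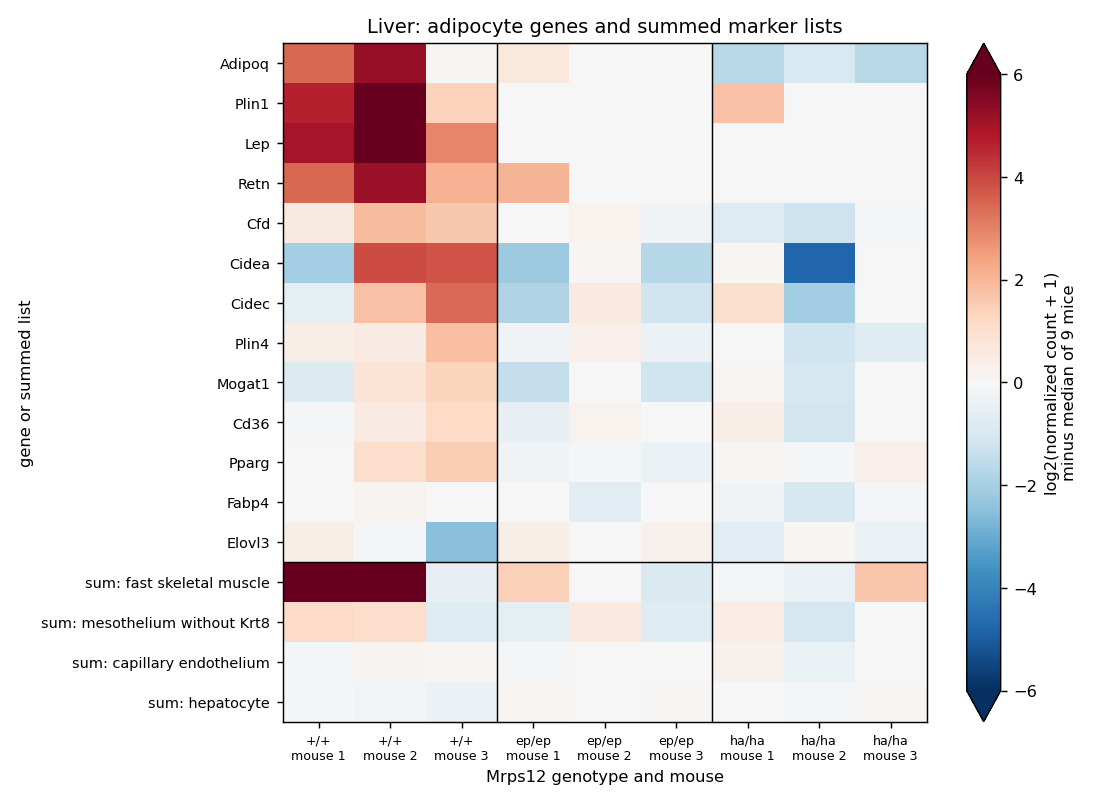
Heat map of adipocyte and lipid droplet genes (upper block, log2 of the normalized count plus 1) and of the summed counts of marker lists (lower block) in the 9 livers, each row centred on its median, with red above it and blue below. Adipoq, Plin1, Lep and Retn are reddest in +/+ mice 1 and 2, where the sums of fast skeletal muscle genes (25079 and 31897) and of mesothelial genes without Krt8 (536 and 511) are highest, while Cidea, Cidec, Mogat1 and Pparg are red in +/+ mice 2 and 3.

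In the limma fit over all genes no member had an adjusted p under 0.05 between genotypes in the liver either. In each liver comparison 1 of 15314 tested genes had one, so that this does not show equal levels. Of the 10 members 8 were tested, of which Adipoq, Plin1 and Lep reached the minimum mean of 10 through Mrps12+/+ mice 1 and 2. Neither their number nor a median that includes them lends weight to a difference. Between Mrps12ha/ha and Mrps12+/+ livers 0 of 8 members had an adjusted p under 0.05 with limma, as did 0.00653% of all 15314 tested genes. An unadjusted p under 0.05 was found for Adipoq, Cfd, Plin1, Lep and Pparg, 5 of 8, and for 14.1% of all genes. The groups did not overlap for Adipoq, Cfd, Lep and Fabp4, 4 of 8, and for 19.9% of all genes. The median log2 fold change was -2.75 over the members, also with Lep at its bound, and -0.017 over all genes. Without Mrps12+/+ mouse 3, 2 members passed, Adipoq and Lep, as did 0.496% of all genes. Without Mrps12+/+ mice 1 and 2, the livers with muscle transcripts, 1 Mrps12+/+ liver was left, that of mouse 3. It was assumed to vary like the other groups, so that only fold changes are given. On the log2 scale they were -2.32 for Cfd, 2.22 for Elovl3 and -1.38 for Pparg, and Adipoq went from -4.35 to -1.51. Mouse 3 itself stood apart, with the lowest Elovl3 and the highest Pparg and Fgb of the 9 livers. Of all tested genes 21.9% were highest in it.

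Between Mrps12ep/ep and Mrps12+/+ livers 0 of 8 members passed the adjusted threshold with limma (0.00653% of all genes). The same 5 genes had an unadjusted p under 0.05, where 9.74% of all genes had one. The groups did not overlap for Cfd, Plin1, Lep and Pparg, 4 of 8, and for 12.8% of all genes. The median was -2.04, also with Lep and Plin1 at their bounds, against -0.007 over all genes. Pparg passed without Mrps12+/+ mouse 1 and Lep without Mrps12+/+ mouse 3, as did 0.17% and 0.444% of all genes. Without Mrps12+/+ mice 1 and 2, where mouse 3 was again the lone Mrps12+/+ liver, the log2 fold changes were 2.72 for Elovl3 and -1.74 for Pparg. That of Adipoq turned from -2.72 to 0.12. Both comparisons used the same 3 Mrps12+/+ livers. Between Mrps12ha/ha and Mrps12ep/ep livers 0 of 8 members passed (0.00653% of all genes) and none had an unadjusted p under 0.05 (8.62%). The groups were apart for Adipoq and Pparg, 2 of 8, and for 17.8% of all genes. For Adipoq this rested on 5, 3 and 1 reads in Mrps12ep/ep and 0, 1 and 0 in Mrps12ha/ha livers. In the liver of Mrps12ha/ha mouse 1 a single read was worth 2.380 normalized counts, above the lowest Mrps12ep/ep value of 2.2. For Lep and Plin1 both groups were too low for a fold change. With limma-voom on whole reads 0 members passed in each of the liver comparisons.

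**Figure D5:**
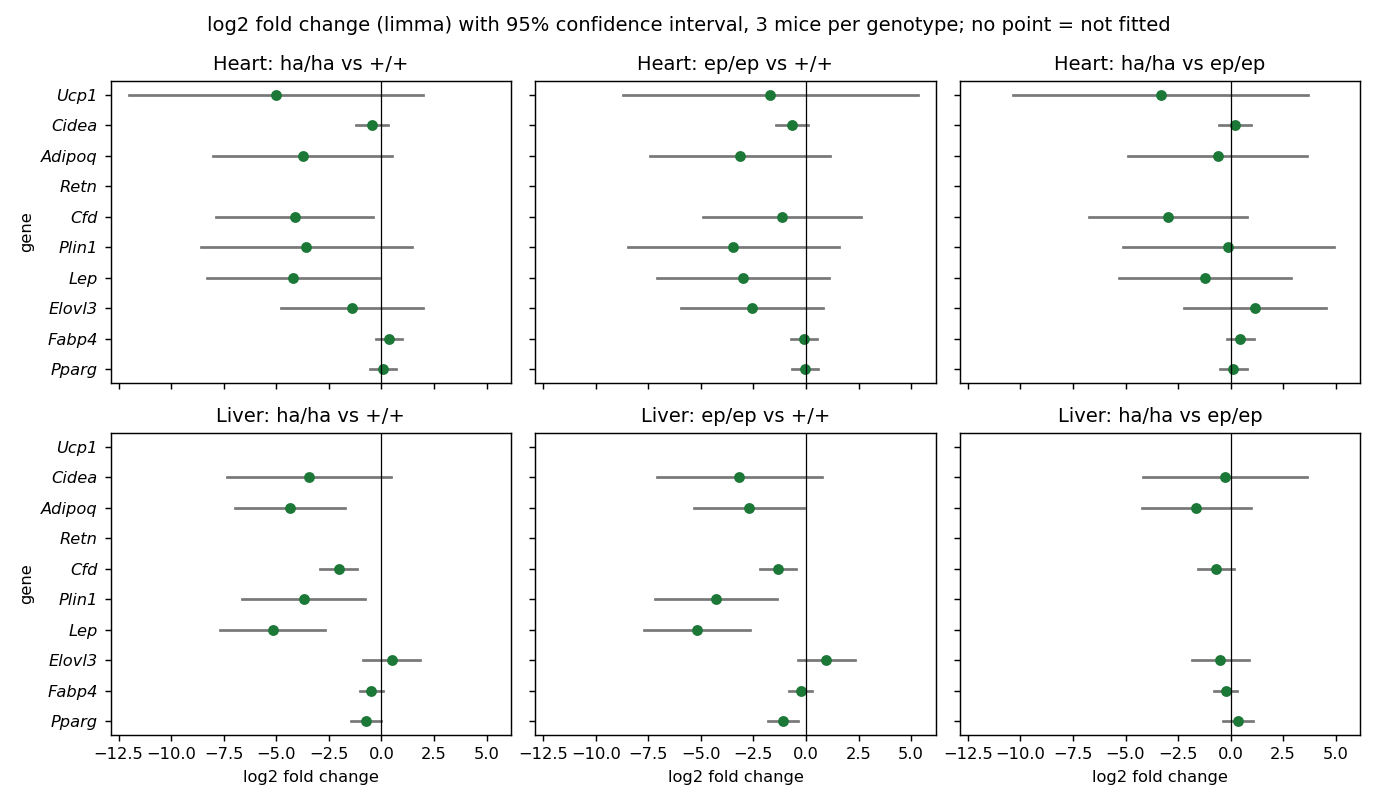
The log2 fold change of each member from limma (point) with its 95% confidence interval (line) in the 6 comparisons, heart above and liver below, 3 mice per genotype, with no point where a gene was not tested or both groups were at or under 3 reads. In the heart the intervals of Ucp1, Adipoq, Plin1, Lep and Elovl3 span several log2 units, from -12.02 to 1.98 for Ucp1 between ha/ha and +/+, while those of Cidea, Fabp4 and Pparg are the narrowest. Points against a group at 0 reads, Lep in both mutants and Plin1 in ep/ep livers, depend on the added count of 1.

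Of 18 lipid droplet genes linked to PPARG in fatty liver, 13 were lower and 5 higher in Mrps12ha/ha than in Mrps12+/+ livers (median -0.52), and 16 and 2 in Mrps12ep/ep livers (median -0.64). Over all 15314 tested genes, 8035 were lower in Mrps12ha/ha and 7830 in Mrps12ep/ep livers. The 18 include the members Cidea, Fabp4 and Pparg, and share Plin4, Cidec and Lpl with the white list. Their counts therefore repeat values given for the members and are not separate from them. Of the 18 genes 10 were highest in Mrps12+/+ mouse 3, where 21.9% of all tested genes were, and 4 in Mrps12+/+ mouse 2, where 7.22% were. The other white and general adipocyte list did not lean to one side in Mrps12ha/ha livers, with 10 genes higher and 11 lower (median -0.05), and the other brown list had 3 higher and 8 lower (median -0.48). None of these genes passed the adjusted threshold with limma, and the unadjusted p was under 0.05 for 4 of 18, 8 of 21 and 3 of 11 genes of the 3 lists in Mrps12ha/ha livers, beside 14.1% of all genes, and for 3 of 18, 4 of 21 and 4 of 11 in Mrps12ep/ep livers, beside 9.74%. On the white list, Slc2a4, the insulin-responsive glucose transporter, had 188.9 and 200.5 in Mrps12+/+ mice 1 and 2, 0 in mouse 3 and 45.5 to 121.5 in mutant livers, Aqp7, a glycerol channel, had 20.3, 26.7 and 36.7 in Mrps12+/+ and 0 to 8.7 in mutant livers, and Pnpla3, a lipase relative, had 9.8 to 49.0 in Mrps12+/+ and 19.6 to 311.9 in mutant livers. Of the other brown genes, Cox8b, a subunit of muscle and brown fat mitochondria, had 79.8 and 152.8 in Mrps12+/+ mice 1 and 2, 40.5 in Mrps12ha/ha mouse 3 and 0 in the other 6 livers, and Ucp3 had 34.3 and 74.4 in the first 2 and 0 to 10.4 in the others. Prdm16, a regulator of brown fat identity, had 103.4 in Mrps12ep/ep mouse 2 and 8.3 to 40.6 in the others, and Kcnk3, a potassium channel, had 10.5 to 56.1.

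Side by side, the members had different levels in the 2 tissues, which were normalized separately and not tested against each other. In RPM, the reads of a gene scaled by the reads of its sample, Fabp4 had 604 to 1240 in hearts and 11.9 to 28.6 in livers. Elovl3 had 0.0198 to 2.08 in hearts and 37.8 to 312 in livers. Cidea had 33.6 to 110 in hearts and 0.0123 to 14.0 in livers, and Pparg 16.0 to 30.7 in hearts and 7.44 to 27 in livers. Adipoq and Plin1 reached 39.4 and 89.4 in the heart of Mrps12+/+ mouse 3, above Pparg in any heart. Their next highest values in a heart were 7.30 and 11.3, in Mrps12ep/ep mouse 2. In a liver they had at most 2.36 and 2.21. Per kilobase of exon, in normalized counts, the means over 9 hearts were 5970 for Fabp4, 1360 for Cidea, 633 for Ucp1 and 265 for Pparg, and that of Ucp1 rested on 1 mouse. In the liver the means were 5440 for Elovl3, 260 for Fabp4, 225 for Pparg, 210 for Cfd and 152 for Cidea, and the last 4 of these had ranges over the 9 livers that overlapped. The exon length used for Fabp4, 4489 bases, is the whole gene, so that its level per kilobase is a low estimate.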

How the data were processed

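RNA was sequenced from hearts and livers of 3 mice per genotype on the HFD, and the 54 labelled libraries are 3 technical libraries of each of 18 samples. Per the submitters' processing notes, reads were trimmed with Trim Galore 0.4.1 and cutadapt 1.18, checked with FastQC 0.11.8 and quantified with Salmon 1.1.0 on GRCm38.p6. The authors deposited other values than raw counts, namely normalized counts per gene after DESeq2 size factors, 1 column per sample, taken as 1 mouse each by the labels' numbers although the methods speak of pooling independent replicates before quantification, so that n = 3 rests on the labels, and each tissue in a table of its own. The authors' tables of fold changes and p-values were not used. Whole reads were recovered from the steps between low values (tolerance 0.1 reads, 100.0% of low values whole in each sample). The expression tests were limma 3.58.1 in R 4.3.3 with an intensity trend on log2(normalized count + 1), for genes whose mean over the 9 mice reached 10, all 3 genotypes in 1 fit, Benjamini-Hochberg adjustment and a threshold of 0.05. The log2 scale with 1 added understates changes of low genes. The method was tested on simulated counts in which all genes varied between mice to the same degree and no mouse stood apart. That test does not cover members that rested on 1 or 2 mice. Permutation tests and intervals used scipy 1.17.1 (Python 3.11.15; tables read by pandas 2.3.3), and intervals cover counting error only. Members and lists were chosen with earlier results of these data known. Beside the members, the text names up to 4 genes of a list, from those with the largest spread between mice (all 4 for the adipocyte lists, some for markers of other cell types) and for some members the 5 genes with the highest correlation to it; those of Elovl3 in the liver are not reported here. Nothing in the labels says which mice shared a litter, and alternatives covered the added count, the filter, normalization, sample weights and each mouse left out.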

Additional observations from a re-analysis of the deposited data

How the results depend on the processing

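With 3 mice per genotype and 1 or 2 samples rich in fat or muscle transcripts, the fold changes rest on single animals. Of 765 alternative values for 49 member fold changes, 715 kept direction and side of the threshold, 15 came to pass it and 35 turned direction, 20 of them on leaving out 1 mouse, and the cause was not tested. The number of members past the threshold was 0 in all 6 comparisons. With sample weights it was 3 of 9 between Mrps12ha/ha and Mrps12+/+ hearts and 1 of 9 between Mrps12ha/ha and Mrps12ep/ep hearts, where 34.7% and 39.3% of all genes passed. Leaving out 1 mouse gave 0 to 1 in each of these (1 without Mrps12ha/ha mouse 2, with 27% and 23.2% of all genes), 0 to 2 between Mrps12ha/ha and Mrps12+/+ livers and 0 to 1 between Mrps12ep/ep and Mrps12+/+ livers. Without Mrps12+/+ livers 1 and 2, chosen after seeing the data, 1 Mrps12+/+ liver was left, and only fold changes are given.

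Leaving out 1 mouse, values between Mrps12ha/ha and Mrps12+/+ hearts ran from -0.70 to 0.04 for Cidea and from -0.07 to 0.27 for Pparg. Between Mrps12ep/ep and Mrps12+/+ hearts they ran from -4.65 to 1.88 for Ucp1, -2.93 to 0.40 for Cfd, -0.24 to 0.08 for Fabp4 and -0.22 to 0.27 for Pparg. Between Mrps12ha/ha and Mrps12ep/ep hearts they ran from -2.55 to 1.32 for Adipoq, -2.07 to 2.12 for Plin1, -2.16 to 0.67 for Lep, -0.14 to 2.49 for Elovl3 and -0.19 to 0.29 for Pparg. In the liver they ran from -0.40 to 1.04 for Elovl3 (Mrps12ha/ha against Mrps12+/+), and between the mutants from -1.12 to 1.33 for Cidea and -0.45 to 0.04 for Fabp4.

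Without both fat-rich hearts, also chosen after seeing the data, Cidea was 0.04 between Mrps12ha/ha and Mrps12+/+, Fabp4 0.20 and Pparg 0.46 between Mrps12ep/ep and Mrps12+/+, and Adipoq 1.32, Plin1 2.12, Lep 0.67 and Pparg -0.19 between the mutants. Quantile normalization gave Fabp4 0.00 and sample weights Pparg 0.20 between Mrps12ep/ep and Mrps12+/+ hearts. Between the mutant hearts an added count of 0.1 gave Adipoq 0.38 and Plin1 0.92, and sample weights Pparg -0.03. Between the mutant livers an added count of 8 gave Cidea 0.13 and sample weights 0.45. Without Mrps12+/+ livers 1 and 2 Adipoq was 0.12 in Mrps12ep/ep livers. Over all genes the number past the threshold ranged from 3 to 5573 between Mrps12ha/ha and Mrps12+/+ hearts. It ranged from 0 to 3 between Mrps12ep/ep and Mrps12+/+ hearts and from 3 to 6314 between the mutant hearts. In the liver, where each group kept at least 2 mice, it ranged from 0 to 90, 0 to 68 and 0 to 18.

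The labels tie same-numbered mice by nothing but the number. In no comparison did all 3 pairs of deviations correlate above 0.1, though 2 pairs of Mrps12ep/ep and Mrps12+/+ hearts did at 0.578 and 0.409 and 2 pairs of livers at 0.164 and 0.128, and the replicate block left the number of members past the threshold at 0 in all 6 comparisons. The edgeR alternative was not run, and limma-voom on recovered reads, added after seeing the data, stands in for it.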
